A study of Homo sapiens with 12 samples.

Results

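The human translation initiation factors were followed in 2 lung cancer cell lines treated with isovalerylspiramycin I (ISP-I), the macrolide component isolated from the antibiotic carrimycin. Members were chosen by gene symbol: every listed gene whose name begins with EIF1 to EIF6, except EIF4E, the EIF4E-binding proteins (EIF4EBP) and the eIF2 kinases (EIF2AK). This gave 48 of 19973 listed genes: 4 of eIF1 and eIF1A, the eIF1A domain gene EIF1AD, 4 of eIF2, the alternative initiator tRNA carriers EIF2A and EIF2D, 5 of eIF2B, 14 of eIF3, 12 of eIF4, and 6 of eIF5, eIF5A, eIF5B and eIF6. H460 and A549 are established non-small cell lung cancer (NSCLC) lines, labelled WT for genotype; the study describes both as carrying inactivating KEAP1 mutations, which the controls share. Cells of each line were left non-treated (control) or received 10 µM ISP-I for 48 h, with 3 RNA-seq libraries in each of the 4 groups. Each model is 1 cell line, and while a general statement on the study's statistics speaks of independent experiments, no source says of these RNA-seq replicates whether they came from separate cultures, so p-values measure the spread between these libraries.

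Translation initiation brings a ribosome to the start codon of an mRNA. eIF2 carries the initiator tRNA and is recharged with GTP by its exchange factor eIF2B, the step that phosphorylation of the eIF2 alpha subunit blocks under stress. eIF3 is the large scaffold on the small ribosomal subunit, the eIF4 proteins bind and unwind the capped mRNA, eIF1 and eIF1A guard start codon choice, and eIF5 and eIF5B complete GTP hydrolysis and subunit joining. Growth signalling through PI3K, AKT and mTOR, the pathway addressed by the study, reaches this machinery through the cap-binding step.

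Promoter sequences are shown for 5 members that the results turn on, as context for their levels: EIF4G1, which fell in both lines, EIF5A2, EIF5 and EIF4A2, which rose in both, and EIF2B1, which fell in H460. They were chosen after the values and motif matches were seen. Each is the 250 bases before the gene's start in RefSeq on GRCh38.p14, read 5′ to 3′ on the gene's own strand, with matches to the searched motifs in capitals. The EIF4G1 window lies at chr3:184314356-184314605 on the plus strand, EIF2B1 at chr12:123633687-123633936 on the minus strand, EIF5A2 at chr3:170908638-170908887 on the minus strand, EIF5 at chr14:103333987-103334236 on the plus strand and EIF4A2 at chr3:186783327-186783576 on the plus strand.
EIF4G1: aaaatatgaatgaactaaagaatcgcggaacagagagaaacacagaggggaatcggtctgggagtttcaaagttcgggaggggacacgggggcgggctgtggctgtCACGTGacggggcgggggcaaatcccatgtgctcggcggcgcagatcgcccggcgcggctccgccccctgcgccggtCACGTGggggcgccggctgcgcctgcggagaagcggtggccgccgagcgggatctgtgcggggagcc
EIF5A2: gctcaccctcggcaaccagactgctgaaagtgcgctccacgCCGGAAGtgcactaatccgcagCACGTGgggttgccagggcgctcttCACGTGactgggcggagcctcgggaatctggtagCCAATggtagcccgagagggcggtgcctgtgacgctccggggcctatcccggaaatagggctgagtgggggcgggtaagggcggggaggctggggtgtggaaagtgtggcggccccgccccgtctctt
EIF5: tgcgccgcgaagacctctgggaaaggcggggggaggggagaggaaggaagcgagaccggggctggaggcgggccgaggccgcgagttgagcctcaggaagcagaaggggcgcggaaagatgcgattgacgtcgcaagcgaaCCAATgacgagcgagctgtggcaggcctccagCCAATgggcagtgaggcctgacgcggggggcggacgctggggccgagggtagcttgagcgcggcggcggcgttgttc
EIF2B1: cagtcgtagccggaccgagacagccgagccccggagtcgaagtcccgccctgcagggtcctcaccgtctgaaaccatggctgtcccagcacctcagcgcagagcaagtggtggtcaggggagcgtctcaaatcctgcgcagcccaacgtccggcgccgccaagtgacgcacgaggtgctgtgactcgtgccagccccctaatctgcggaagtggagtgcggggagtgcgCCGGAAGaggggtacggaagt
EIF4A2: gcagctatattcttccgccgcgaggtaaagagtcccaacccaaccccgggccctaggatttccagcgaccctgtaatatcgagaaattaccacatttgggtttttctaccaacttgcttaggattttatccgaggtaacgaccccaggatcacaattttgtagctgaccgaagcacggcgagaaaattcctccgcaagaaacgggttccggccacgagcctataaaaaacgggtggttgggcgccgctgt
The capitals mark the E-box CACGTG in EIF4G1 (144 and 67 bases before the start) and in EIF5A2 (187 and 162 bases before it). EIF5A2 also holds the ETS core CCGGAAG at 209 bases and CCAAT at 128 bases. In EIF5 they mark CCAAT at 109 and 77 bases, and in EIF2B1 the ETS core at 21 bases. The EIF4A2 window held no match. Both strands were searched, and no matches in these windows overlapped. Among the other members past 2-fold in a line, the windows of EIF5B and EIF3J held no match either, EIF3D held 1 CCAAT, and EIF3A had no promoter entry.

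RefSeq promoters were matched to 41 of the 48 members, taking for each the promoter nearest the start of its MANE Select transcript. The promoters used for EIF3C and EIF4E3 lay 22906 and 3716 bases from that start. The E-box was found in 9 of these 41 windows (22.0%), against 6.34% of all 35116 promoters and 8.56% of the 11441 promoters of genes expressed here. For expressed genes the first listed promoter of each was used, so members and expressed genes had windows chosen differently. The ETS core was in 8 members (19.5%, against 14.6% of expressed genes) and CCAAT in 17 (41.5%, against 34.7%). The ATF4 response element TGATGNAA was in 1 member, EIF4E3 (2.44%, against 1.52%), and the YY1 core ATGGCGG also in 1, EIF3I (against 3.68%). These are letter matches only.

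The deposited values were FPKM, read counts scaled by gene length and library total. The libraries held 14225849 to 17874422 gene reads, and 47 of the 48 members were measured in each comparison; EIF4E1B, an oocyte-type cap-binding gene, had 0 to 1 reads per library. FPKM is relative to the library total, and bulk libraries cannot tell a change of RNA per cell from a change in the mix of cells. The epithelial keratins KRT8 and KRT18 were at 66.9 to 748 FPKM in all libraries, PTPRC and PECAM1, markers of blood and endothelial cells, were at 0.0368 FPKM or less, and the fibroblast collagen COL1A1 lay at 0.621 to 1.30. EPCAM, also an epithelial marker, was at 1.31 to 2.08 FPKM in A549 and at 0 to 0.148 in H460. Of the members, 20 overlap another listed gene, 18 of them on the opposite strand (EIF2B1 with GTF2H3 and DDX55, EIF3A with NANOS1, EIF3J with SPG11, EIF4A2 with RFC4, EIF4G2 with CTR9, EIF5B with TXNDC9 and REV1), and the strand setting of the counting is not given in the sources used here. EIF1AY is Y-linked, so it is counted but its levels are not given.

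Libraries differed along the GC content of the genes, which touches several results. The median deviation of the GC-richest genes minus that of the GC-poorest, on the log2 scale around each line's own mean, was 0.17 to 0.62 in the H460 controls and -0.76 to -0.09 in the H460 ISP-I libraries. In A549 it was -0.14 to -0.06 in 5 libraries and 0.49 in control library 3. H460 control library 2, H460 ISP-I library 3 and A549 control library 3 had the highest value of their groups. In each of these 3 libraries the deviation of 45 members from the mean of the group's other libraries rose with GC content (Pearson's r 0.56, 0.48 and 0.62, a description across genes of 1 library) and EIF5B was the lowest member. Whether this difference contributes to the changes below was not tested. Where the GC trend is removed below, the level of the trend goes with its slope, so each library is rescaled as well. That moved the median of all tested H460 genes from -0.15 to 0.07.

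Most initiation factors that moved after ISP-I rose in A549, while H460 held both rises and falls. Changes are differences of log2(FPKM + 1), and a gene rose or fell where limma's adjusted p was under 0.05 at any size. In A549, 25 of 47 tested members rose (53.2%, against 30.5% of all tested genes) and 2 fell (4.26%, against 27.0%), the cap scaffold EIF4G1 and the low cap-binding gene EIF4E3. In H460, 14 rose (29.8%, against 27.6% of all genes) and 9 fell (19.1%, against 41.5%). The median log2 change of the members was 0.29 in A549, against 0.02 over all genes, and 0.04 in H460, against -0.15. The H460 split depended on scaling: with median-of-ratios factors, which moved the median of all H460 genes from -0.15 to 0.01, 22 members rose and 5 fell, against 34.6% and 32.5% of all genes under that scaling. The 9 members with an E-box did not share a direction: in H460, 2 rose, 3 fell and 4 did not pass the test, and in A549, 5 rose, 1 fell and 3 did not pass.

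Past 2-fold, 5 members were higher in H460 (10.5% of all genes): EIF3A, EIF5A2, EIF5, EIF5B and EIF3J. EIF2B1 alone was lower by that measure (15.2% of all genes). In A549, EIF3D and EIF4A2 were higher past 2-fold (4.2% of all genes) and none was lower (3.51% of all genes), while 2 members passed limma's test in that direction at smaller size. Of the members, 12 rose in both lines: EIF2A, EIF2B5, EIF2S1, EIF3D, EIF3H, EIF3I, EIF3J, EIF3M, EIF4A2, EIF4B, EIF5 and EIF5A2. Of the 12708 genes tested in both lines, 17.7% rose in both and 21.4% fell in both. Both EIF4E3 and EIF4G1 fell in both lines, 12 members passed in neither, and EIF2B3 fell in H460 and rose in A549.

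**Figure D1:**
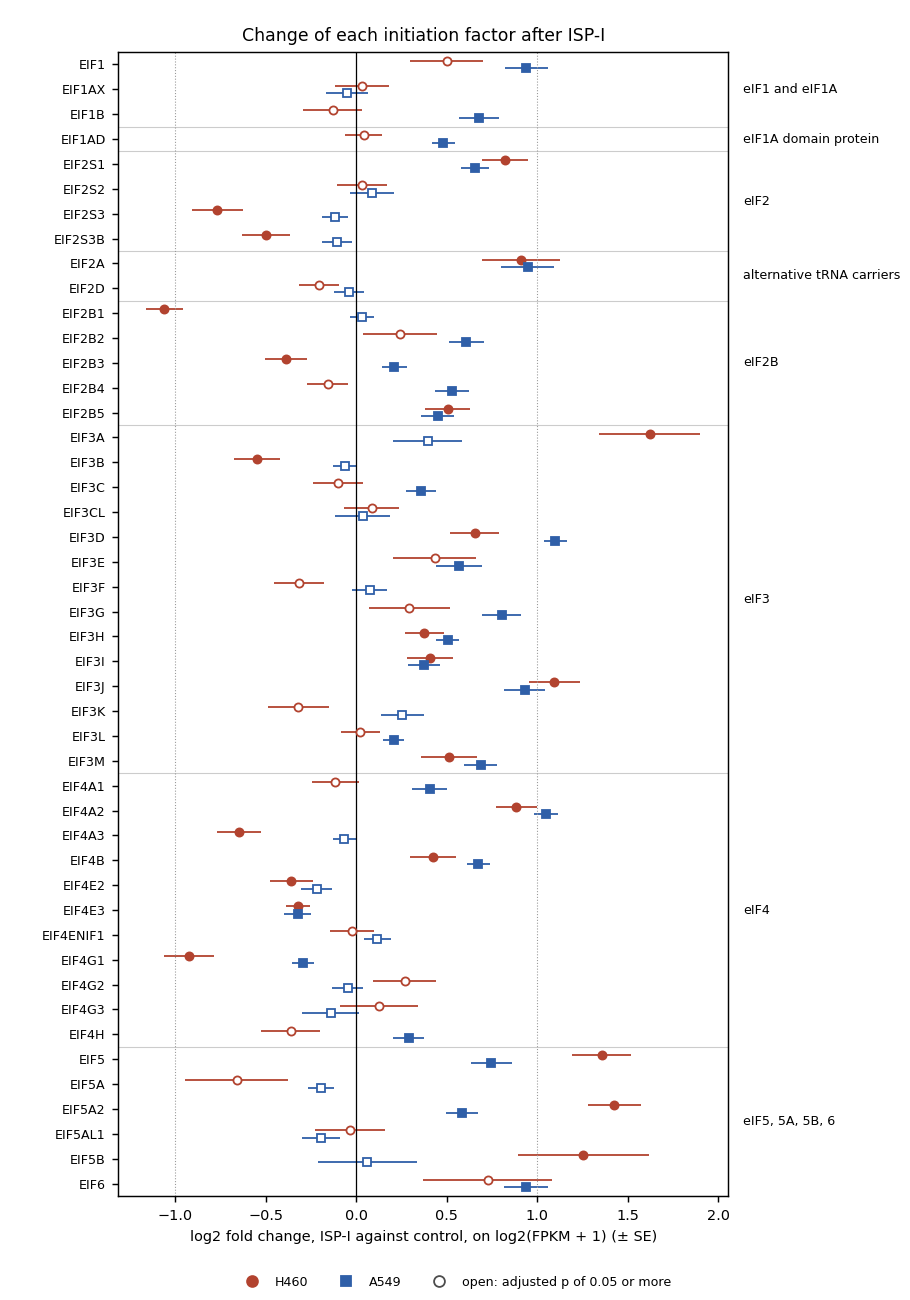
Log2 fold change on log2(FPKM + 1) after ISP-I (horizontal axis, ± SE, 3 against 3 libraries) for 46 initiation factors in H460 (red circles) and A549 (blue squares), ordered by role; filled symbols have an adjusted p under 0.05 and dotted lines mark 2-fold. In A549 the filled symbols lie to the right except EIF4E3 and EIF4G1, while in H460 they run from EIF2B1 at -1.06 to EIF3A at 1.62.

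The 3 subunits of eIF2, the carrier of the initiator tRNA, moved apart. EIF2S1 encodes the alpha subunit, the one phosphorylated by the stress kinases (ENSG00000134001, chromosome 14, 67360328 to 67386516, plus strand, hg38). It was at 38.6, 34.3 and 37.3 FPKM in the H460 controls and at 60.7, 62.0 and 75.3 after ISP-I, and at 38.5, 37.8 and 32.5 and then 57.4, 57.5 and 57.9 in A549. All treated libraries were above all controls of their line, and the log2 change was 0.82 ± 0.13 (SE, adjusted p = 0.000518) for H460 and 0.66 ± 0.08 (adjusted p = 0.000182) for A549.

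EIF2S3, the gamma subunit that binds GTP and the tRNA (ENSG00000130741, chromosome X, 24054946 to 24078810, plus strand, hg38), fell in H460. Its level went from 180.4, 178 and 164 FPKM in the controls to 104, 113 and 89.2, with no overlap (-0.77 ± 0.14, adjusted p = 0.00122). In A549 it was 120.4, 122 and 107 before and 108, 107 and 107 after, overlapping values (adjusted p = 0.196). EIF2S2, the beta subunit, did not pass in either line (0.03 in H460 and 0.09 in A549, adjusted p = 0.837 and 0.554). EIF2S3B, a near-identical copy of EIF2S3 at 4.91 ± 0.279 FPKM in H460 controls, fell as well in H460 (-0.50 ± 0.13), but reads may be split between the copies. The EIF2S1 to EIF2S3 FPKM ratio within a library went from 0.193 to 0.228 to 0.547 to 0.844 in H460 and from 0.303 to 0.319 to 0.532 to 0.541 in A549.

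Of the alternative initiator tRNA carriers, EIF2A rose in both lines. It was at 11.5, 8.01 and 9.91 FPKM in H460 controls and 19.2, 25.7 and 14.1 after ISP-I (0.91 ± 0.21, adjusted p = 0.00492). In A549 it went from 12.9, 13.8 and 8.75 to 22.0, 24.2 and 23.8 (0.95 ± 0.15, adjusted p = 0.00082). The lowest values of 3 groups were in the 3 libraries with the highest GC balance of their own groups. EIF2D passed in neither line (-0.21 in H460, with an adjusted p of 0.122, and -0.04 in A549, with 0.712).

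The 5 subunits of eIF2B, the exchange factor that reactivates eIF2, responded in different directions in H460, where 1 rose and 2 fell (27.6% and 41.5% of all genes), while 4 rose in A549 (30.5% of all genes). EIF2B1, the alpha subunit of its regulatory core (ENSG00000111361, chromosome 12, 123620406 to 123633766, minus strand, hg38), was at 35.8, 35.6 and 35.1 FPKM in H460 controls and at 16.9, 16.6 and 16.0 after ISP-I. These groups were far apart compared with their spread (-1.06 ± 0.10, adjusted p = 2.79e-05). In A549 it stayed between overlapping values of 22.0, 19.9 and 21.2 and 21.7, 21.8 and 21.2 FPKM (0.03 ± 0.06, adjusted p = 0.688). The difference between the lines was -1.09 ± 0.10 (adjusted p = 2.57e-06), and -0.79 (adjusted p = 5.64e-05) with median-of-ratios factors.

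EIF2B5, the catalytic epsilon subunit, rose in both lines, from 14.8, 15.8 and 12.8 to 22.8, 19.6 and 20.5 FPKM in H460 (0.51 ± 0.12, adjusted p = 0.00576) and from 8.02, 9.07 and 10.3 to 12.8, 13.1 and 12.4 in A549 (0.45 ± 0.09, adjusted p = 0.0032). The EIF2B5 to EIF2B1 ratio was 0.365 to 0.445 in H460 controls and 1.18 to 1.35 after ISP-I, so their order by FPKM turned in all 3 treated libraries. EIF2B2 and EIF2B4, the beta and delta subunits of the regulatory core, rose in A549 (0.61 and 0.53) and did not pass in H460 (0.24 and -0.16, adjusted p = 0.31 and 0.244). The direction of EIF2B4 in H460 turned with median-of-ratios factors, at 0.09 (adjusted p = 0.505), with voom, at 0.11 (adjusted p = 0.487), and with the GC trend removed, at 0.25 (adjusted p = 0.028). Voom was scaled by median-of-ratios factors as well. EIF2B3, the gamma subunit that partners EIF2B5, was 15.9 ± 0.792 FPKM (SD, n = 3) in H460 controls and 11.9 ± 1.25 after ISP-I (-0.39, adjusted p = 0.0159), and 9.46 ± 0.347 and 11.1 ± 0.556 in A549 (0.21, adjusted p = 0.0316). With median-of-ratios factors the EIF2B3 change did not pass in H460 (-0.12 (adjusted p = 0.392)) or in A549 (0.18 (adjusted p = 0.0721)).

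Of the 14 eIF3 genes, 6 rose and 1 fell in H460, and 9 rose and none fell in A549, against rises in 27.6% and falls in 41.5% of all genes in H460 and 30.5% and 27.0% in A549. Their median log2 change was 0.34 in H460 and 0.38 in A549. Their summed level, a sum of length-scaled values, went from 539.9 ± 5.04 FPKM (SD, n = 3) to 829 ± 80.7 in H460 and from 532 ± 5.01 to 746 ± 13.9 in A549. Without EIF3A the H460 sum was 445 to 469 FPKM in the controls and 537 to 578 after ISP-I. EIF3E is listed with an exon length of 37761 bases against 2022 for its MANE Select transcript, so its FPKM understates its level. Other members are affected to a lesser extent. Listed over MANE Select length was 6.87 for EIF3I, 3.62 for EIF3K, 3.16 for EIF3G and 2.92 for EIF3B, with a median of 1.62 over the members. Sums and rankings of FPKM between genes rest on these unequal lengths.

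EIF3A, the large subunit of the octamer core (ENSG00000107581, chromosome 10, 119033670 to 119080823, minus strand, hg38), had the largest log2(FPKM + 1) change of all members in H460. By the ratio of mean FPKM, EIF5A2 changed more (3.42 against 3.22). EIF5A2 also led with a pseudocount of 0.1 (1.73 against 1.63), quantile normalization (1.62 against 1.60) and voom (2.06 against 1.93). EIF3A led with median-of-ratios factors (1.90 against 1.67) and with the GC trend removed (1.67 against 1.07). EIF3A was at 88.0, 64.7 and 96.5 FPKM in the H460 controls and at 254, 375 and 173 after ISP-I, with wide spread among the treated libraries and no overlap (1.62 ± 0.28, adjusted p = 0.000891). In A549 it was 82.1, 86.7 and 49.4 before and 94.7, 89.7 and 95.0 after (0.39 ± 0.19, adjusted p = 0.108). The low values in H460 control library 2, H460 ISP-I library 3 and A549 control library 3 are in the libraries with the highest GC balance of their groups. Without ISP-I library 3 the H460 change was 1.90 (adjusted p = 2.58e-05), and with the GC trend removed 1.67 (adjusted p = 0.00025). The lines differed by 1.23 ± 0.38 (adjusted p = 0.016), and by 0.95 (adjusted p = 0.0296) without H460 ISP-I library 2, the highest one.

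EIF3D, a subunit that can itself bind the cap of some mRNAs (ENSG00000100353, chromosome 22, 36510855 to 36529184, minus strand, hg38), led the rises in A549. There it went from 55.6, 56.8 and 59.6 to 122, 122 and 128 FPKM, tight groups far apart (1.10 ± 0.06, adjusted p = 4.92e-06). In H460 it rose from 94.5, 102 and 87.9 to 168, 143 and 139.9 (0.65 ± 0.14, adjusted p = 0.00255). EIF3J, a loosely bound subunit near the mRNA entry channel (ENSG00000104131, chromosome 15, 44537125 to 44563029, plus strand, hg38), rose in both lines. Its values were 47.8, 38.1 and 47.4 and then 88.4, 107 and 92.5 FPKM in H460 (1.10 ± 0.14, adjusted p = 0.000167), and 45.1, 42.1 and 32.4 and then 75.8, 75.3 and 77.1 in A549 (0.93 ± 0.12, adjusted p = 0.000241).

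EIF3B, a core scaffold subunit, was the 1 eIF3 gene that fell in H460, from 89.8, 99.9 and 92.0 to 71.8, 58.6 and 62.0 FPKM (-0.55 ± 0.13, adjusted p = 0.00499). Its fall did not pass with median-of-ratios factors (-0.27 (adjusted p = 0.113)) or with the GC trend removed (-0.06 (adjusted p = 0.652)). Its A549 values were 64.2, 66.5 and 70.4 and 65.1, 62.3 and 65.2 (-0.06, adjusted p = 0.45). Within a library, EIF3D was 0.955 to 1.05 times EIF3B in H460 controls and 2.26 to 2.44 times after ISP-I, and 0.846 to 0.866 and 1.87 to 1.97 times in A549. EIF3C and EIF3CL are near-identical, so the reads of either are uncertain.

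**Figure D2:**
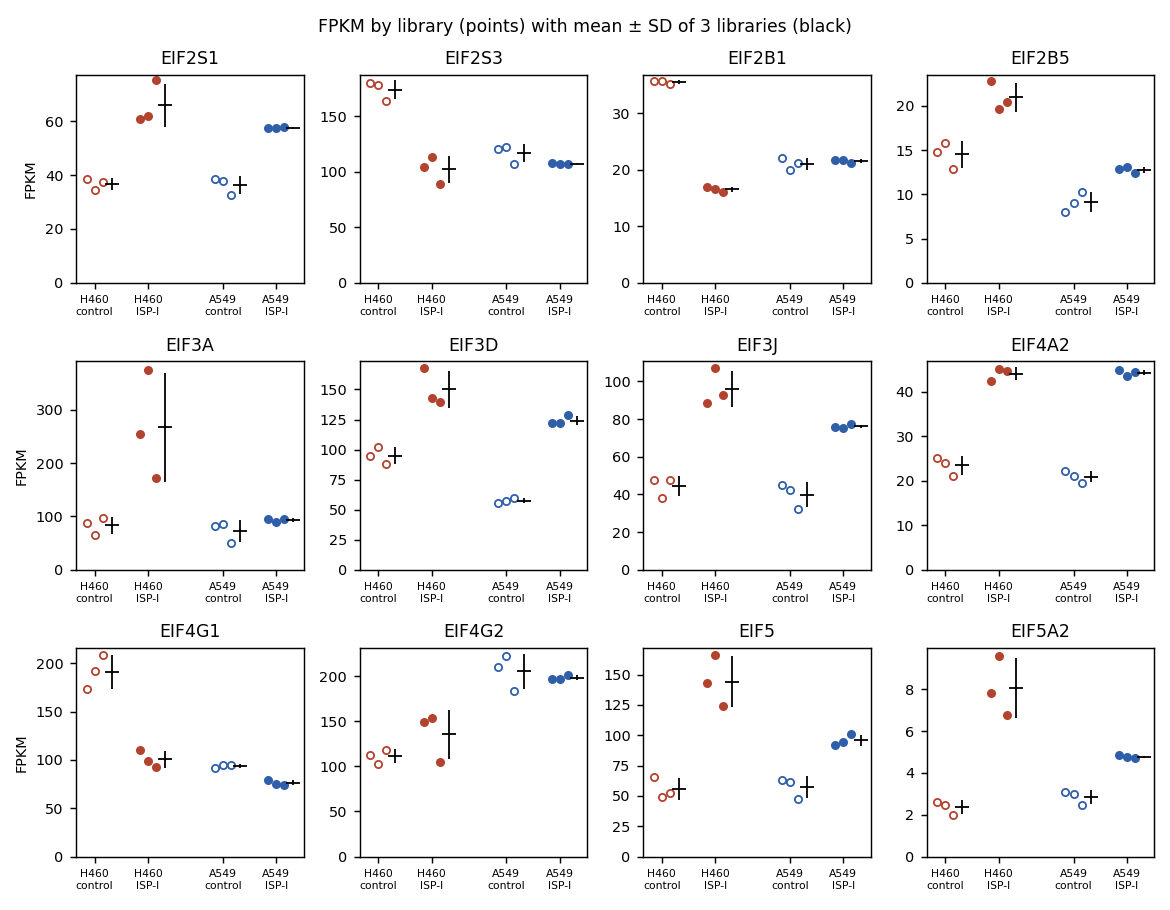
FPKM (vertical axes, starting at 0) of 12 members in each library (points; open for control, filled for ISP-I) with the mean ± SD of 3 libraries in black. EIF2B1 lies at 35.1 to 35.8 FPKM in the H460 controls and 16.0 to 16.9 after ISP-I, while EIF3A spreads from 173 to 375 FPKM in the H460 ISP-I libraries.

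The eIF4 genes held the falls that occurred in both lines. Of 11 tested, 2 rose and 4 fell in H460 (18.2% and 36.4%, against 27.6% and 41.5% of all genes), and 4 rose and 2 fell in A549 (36.4% and 18.2%, against 30.5% and 27.0%). EIF4G1, the main scaffold of the cap complex (ENSG00000114867, chromosome 3, 184314495 to 184335358, plus strand, hg38), was at 173, 192 and 209 FPKM in H460 controls and 109.9, 99.0 and 92.4 after ISP-I (-0.92 ± 0.14, adjusted p = 0.000408). In A549 it went from 91.5, 94.7 and 94.8 to 79.3, 75.2 and 74.5 (-0.29 ± 0.06, adjusted p = 0.00422). The groups did not overlap in either line. The fall kept its direction with the GC trend removed, at -0.44 (adjusted p = 0.0163) in H460 and -0.21 (adjusted p = 0.0128) in A549.

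EIF4G2 encodes a related scaffold that lacks the cap-binding protein's docking site, and it did not pass in H460 (112, 103 and 118 and then 149, 153 and 104 FPKM, 0.27 ± 0.17, adjusted p = 0.196) or in A549 (-0.05 ± 0.08, adjusted p = 0.661). The low treated H460 value was in library 3, and without it the H460 change was 0.45 (adjusted p = 0.00447). With median-of-ratios factors and all libraries it was 0.55 (adjusted p = 0.0206). The H460 change did not pass with quantile normalization (0.29, adjusted p = 0.28), with the GC trend removed (0.32, adjusted p = 0.0691) or in 1 fit of all libraries (0.27, adjusted p = 0.105). In H460 the EIF4G2 to EIF4G1 ratio went from 0.535 to 0.649 to 1.13 to 1.55, from below 1 to above it in every library. In A549 EIF4G2 had the higher FPKM throughout, at 1.94 to 2.34 times EIF4G1 before and 2.48 to 2.70 times after. EIF4G3, the third scaffold, was at 6.76 ± 1.05 FPKM in H460 controls and did not pass in H460 (0.13, adjusted p = 0.615) or A549 (-0.14, adjusted p = 0.474).

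Among the eIF4A RNA helicases, EIF4A2 (ENSG00000156976, chromosome 3, 186783205 to 186789897, plus strand, hg38) rose in both lines, to 44.1 ± 1.43 FPKM (SD, n = 3) in H460 and 44.4 ± 0.649 in A549. It was at 25.2, 24.1 and 21.2 FPKM in H460 controls and 42.5, 45.2 and 44.7 after ISP-I (0.89 ± 0.11, adjusted p = 0.00017), and at 22.1, 21.1 and 19.6 and then 44.9, 43.6 and 44.6 in A549 (1.05 ± 0.07, adjusted p = 7.96e-06). EIF4A3, the helicase of the exon junction complex, fell in H460 from 42.2, 43.0 and 37.2 to 25.1, 23.6 and 28.6 FPKM (-0.65 ± 0.12, adjusted p = 0.00158). Its A549 level was 36.6 ± 1.77 FPKM and then 34.9 ± 0.302 (-0.07, adjusted p = 0.4). The EIF4A2 to EIF4A3 ratio went from 0.560 to 0.597 to 1.56 to 1.92 in H460 and from 0.506 to 0.624 to 1.24 to 1.30 in A549. EIF4A1 had 222 to 419 reads per library and overlaps the listed read-through gene SENP3-EIF4A1, so its level of 3.31 ± 0.179 FPKM in H460 controls is uncertain. It rose in A549 (0.41, adjusted p = 0.00764) and did not pass in the other line (-0.12, adjusted p = 0.445). Its direction in H460 turned, without passing, with median-of-ratios factors (0.10, adjusted p = 0.533) and quantile normalization (0.13, adjusted p = 0.41). The same held with voom (0.13, adjusted p = 0.526) and with the GC trend removed (0.16, adjusted p = 0.262).

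EIF4E3, a cap-binding relative of EIF4E named here after its values were seen, fell from 0.392, 0.481 and 0.491 to 0.228, 0.144 and 0.125 FPKM in H460 and from 1.26, 1.20 and 1.15 to 0.781, 0.643 and 0.877 in A549. Its log2 change was -0.32 in both lines (adjusted p = 0.00234 and 0.00613), a value that the added 1 FPKM pulls toward 0 at such levels.

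**Figure D3:**
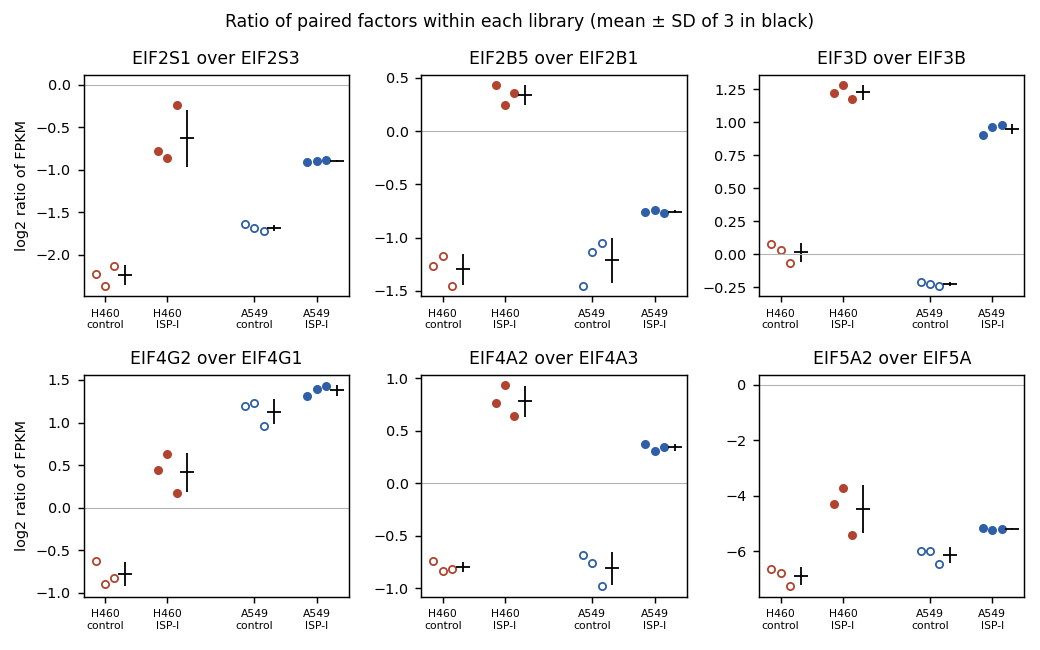
Log2 ratio of the FPKM of 2 initiation factors within each library (points; open for control, filled for ISP-I) with the mean ± SD of 3 libraries in black, for 6 pairs in H460 and A549. Control and ISP-I libraries do not overlap in these pairs, and EIF4G2 over EIF4G1 crosses 0 in H460 and not in A549.

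The within-library ratios do not depend on how libraries are scaled to each other. They were computed for 12 pairs, several of them chosen after the values were seen, so no test is given; 3 against 3 libraries could not go below p = 0.1 in an exact permutation test. A ratio shows that the pair changed unequally, and not which gene moved. EIF5 over EIF5B in H460 was the 1 pair and line in which control and ISP-I libraries overlapped (2.56 to 5.17 and 2.69 to 5.30). Where the paired genes differ in GC content, as EIF4G1 (56.7%) and EIF4G2 (43.4%) do, the ratio carries the GC difference between libraries too. Which gene of a pair has the higher FPKM also depends on the listed lengths. These were 2.81 and 1.51 times the MANE Select transcript for EIF2B5 and EIF2B1, and 2.24 and 1.62 times for EIF4G2 and EIF4G1.

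Genes of the eIF5, eIF5A, eIF5B and eIF6 group rose where they passed, 3 of 6 in each line (27.6% of all genes in H460 and 30.5% in A549). EIF5, the GTPase-activating protein of eIF2 (ENSG00000100664, chromosome 14, 103333544 to 103345025, plus strand, hg38), went from 65.9, 49.2 and 52.2 to 143, 166 and 124 FPKM in H460 (1.36 ± 0.16, adjusted p = 0.000113). In A549 it went from 62.9, 61.6 and 47.1 to 92.2, 94.7 and 101 (0.75 ± 0.11, adjusted p = 0.000699). The rise was larger in H460 by 0.61 ± 0.21 (adjusted p = 0.0254), a difference that no longer passed without any 1 of 7 of the 12 libraries, for example 0.50 (adjusted p = 0.0551) without H460 ISP-I library 2.

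EIF5A2, the low-expressed paralogue of the hypusinated factor eIF5A (ENSG00000163577, chromosome 3, 170888418 to 170908644, minus strand, hg38), was at 2.62, 2.45 and 1.99 FPKM in H460 controls and 7.80, 9.58 and 6.76 after ISP-I. It was at 3.11, 3.00 and 2.44 and then 4.83, 4.74 and 4.72 in A549. Neither line's groups overlapped (1.43 ± 0.15 and 0.59 ± 0.09, adjusted p = 4.2e-05 and 0.000727), and the rise was larger in H460 by 0.84 ± 0.17 (adjusted p = 0.00127). It rests on 164 to 884 reads per library and has the lowest GC content of the members plotted by GC, 33.9%. EIF5A, its abundant paralogue, was 260.3, 271 and 306 FPKM in H460 controls and 151, 125 and 288 after ISP-I. These overlapped through library 3 (-0.66 ± 0.29, adjusted p = 0.0667), and without that library the change was -1.01 (adjusted p = 8.85e-05). The H460 change passed with quantile normalization (-0.71, adjusted p = 0.0155) and in 1 fit of all libraries (-0.66, adjusted p = 0.0215). It did not pass with median-of-ratios factors (-0.38, adjusted p = 0.264), voom (-0.37, adjusted p = 0.23) or the GC trend removed (-0.18, adjusted p = 0.517). The A549 change was -0.19 ± 0.07 (adjusted p = 0.0526). Reads of EIF5A and the near-identical EIF5AL1 (-0.19 in A549, adjusted p = 0.14) cannot be fully separated.

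EIF5B, the GTPase of subunit joining (ENSG00000158417, chromosome 2, 99337371 to 99401326, plus strand, hg38), was at 17.7, 9.53 and 20.4 FPKM in H460 controls and 36.4, 61.6 and 23.4 after ISP-I (1.26 ± 0.36, adjusted p = 0.0133). The highest control and the lowest treated library lay close together. In A549 it was 23.9, 24.6 and 10.6 and 18.3, 20.5 and 19.2 (0.06 ± 0.27, adjusted p = 0.861), and without control library 3 it turned to -0.31 (adjusted p = 0.000697). EIF6, which keeps the large subunit from joining early, rose in A549 from 128, 119 and 166 to 256, 271 and 259 FPKM (0.94 ± 0.12, adjusted p = 0.00029). In H460 it was 88.5, 106 and 103 before and 132, 107 and 317 after (0.73 ± 0.36, adjusted p = 0.0976); ISP-I library 3 held the high value, and without it the change was 0.26 (adjusted p = 0.105). It passed without ISP-I library 2, at 1.04 (adjusted p = 0.0192), and with median-of-ratios factors, quantile normalization, voom, 1 fit of all libraries or the GC trend removed (0.69 to 1.22, adjusted p = 0.00618 to 0.0472).

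Of the 4 start codon selection genes of eIF1 and eIF1A, 2 rose in A549 (30.5% of all genes) and none passed in H460. EIF1 went from 135, 131 and 178 to 271, 291 and 284 FPKM in A549 (0.94 ± 0.12, adjusted p = 0.000263). In H460 it was 152, 161 and 112 and 192, 165 and 246 (0.50 ± 0.20, adjusted p = 0.0531). The H460 change passed with median-of-ratios factors, quantile normalization, voom, 1 fit of all libraries and the GC trend removed (0.49 to 0.79, adjusted p = 0.00395 to 0.0228), and without ISP-I library 2, at 0.63 (adjusted p = 0.0249). EIF1B, a close relative at a lower level, rose in A549 (14.3 ± 2.42 to 23.2 ± 0.822 FPKM, 0.68, adjusted p = 0.00108) and was -0.13 in H460 (adjusted p = 0.492). EIF1AX, the X-linked eIF1A gene, passed in neither line (0.03 and -0.05, adjusted p = 0.862 and 0.724). EIF1AD, named for its eIF1A domain, rose in A549 (0.48, adjusted p = 0.000321) and was 0.04 in H460 (adjusted p = 0.724), or 0.31 (adjusted p = 0.032) with median-of-ratios factors.

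**Figure D4:**
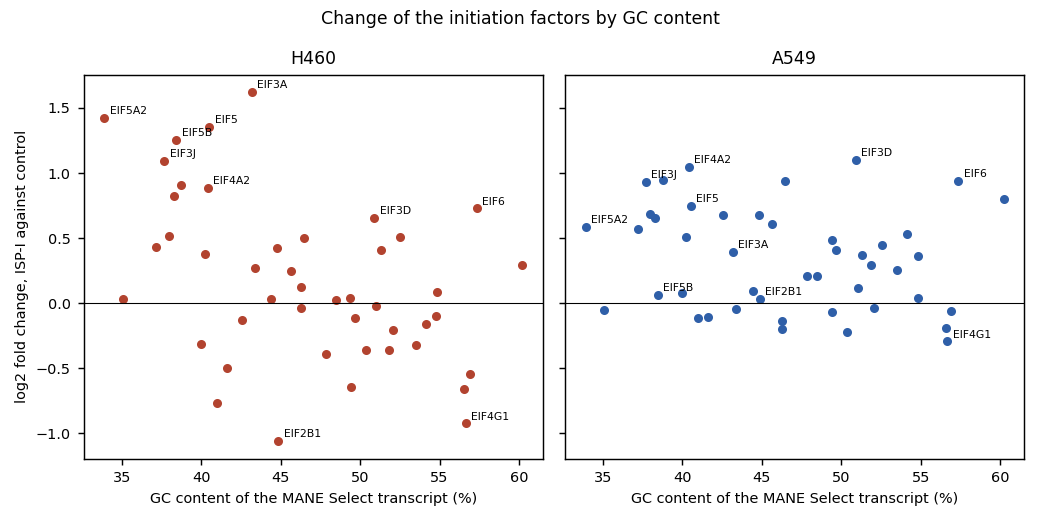
Log2 fold change after ISP-I against the GC content (percent) of the MANE Select transcript for 45 members in H460 (left) and A549 (right). In H460 the members with low GC content lie higher (Pearson's r -0.45, across genes of the same libraries), and EIF2B1 lies lowest at a middle GC content; in A549 r is -0.19.

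The change of the 45 members with a mean of at least 1 FPKM fell with GC content in H460 (Pearson's r -0.45) and less in A549 (-0.19). Over all tested genes r was -0.17 in H460 and -0.10 in A549. That set reaches down to a mean of 0.1 FPKM, so the member and all-gene values rest on unlike filters. These are correlations across genes that share libraries, given as a description. EIF3A, EIF5, EIF5A2, EIF5B and EIF3J, the members higher past 2-fold in H460, all lie at or below 43.2% GC, and EIF4G1 at 56.7%. With the GC trend of each library removed, the log2 change in H460 was 1.30 (adjusted p = 1.16e-05) for EIF5, 1.07 (adjusted p = 7.51e-05) for EIF5A2, 1.09 (adjusted p = 0.00694) for EIF5B, 0.89 (adjusted p = 9.3e-05) for EIF3J and -0.96 (adjusted p = 1.56e-05) for EIF2B1. This removal also rescaled each library, so these values hold both steps.

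In the interaction of line and treatment, the change was more positive in H460 for 3 members (EIF3A, EIF5 and EIF5A2; 18.6% of all genes) and more negative in H460 for 15 (34.7% of all genes). Past 1 on the log2 scale were EIF3A in the first direction (5.93% of all genes) and EIF2B1 in the second (10.1%). This split turned with median-of-ratios factors, to 7 more positive and 2 more negative members (27.1% and 23.6% of all genes), so the shared direction of the 15 was not stable to scaling. The differences of EIF2B1, EIF3A, EIF5A2 and EIF5 passed under every scaling tried.

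Untreated H460 and A549 already differed, in these factors as in genes at large. Of 47 members, 17 were higher in H460 (36.2%, against 28.6% of all genes) and 9 were lower (19.1%, against 31.6%). EIF4G1 was higher past 2-fold (5.64% of all genes), at 191 ± 17.6 FPKM in H460 and 93.7 ± 1.88 in A549 (SD, n = 3; 1.02 ± 0.10, adjusted p = 2.9e-05), but below 2-fold with quantile normalization or the GC trend removed (0.92 in both) and without H460 control library 3 (0.95). EIF3K, an eIF3 subunit named here after its values were seen, was lower past 2-fold (8.78% of all genes), at 53.3 ± 5.71 and 128 ± 22.3 (-1.24 ± 0.14, adjusted p = 8.1e-05). Of the eIF2B genes, EIF2B1, EIF2B3 and EIF2B5 were higher in H460 (0.73, 0.69 and 0.62), and EIF2B2 and EIF2B4 had 0.01 and 0.00. EIF4G2 was lower in H460 (111 ± 7.71 against 205 ± 19.4 FPKM). These comparisons use the same control libraries as the treatment changes.

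Beyond the members, 38 genes of the pathway were listed by role, and 37 were tested. In H460, 11 rose and 14 fell (29.7% and 37.8%, against 27.6% and 41.5% of all genes), and in A549, 13 rose and 12 fell (35.1% and 32.4%, against 30.5% and 27.0%). The largest rise in each line was PPP1R15A, the stress-induced subunit that directs eIF2 alpha dephosphorylation, at 9.44 ± 1.02 and then 851 ± 171 FPKM in H460 (6.34 ± 0.17, adjusted p = 9.48e-08) and 28.7 ± 3.04 and then 379 ± 19.3 in A549 (3.68 ± 0.09, adjusted p = 1.09e-07). It was followed in H460 by the eIF2 kinase EIF2AK3, also called PERK (1.22, adjusted p = 0.000102), and in A549 by the elongation factor EEF1A2 (0.79, adjusted p = 0.000124). The largest fall in each line was EIF4EBP1, which holds back the cap-binding protein EIF4E, from 99.6 ± 6.22 to 19.7 ± 7.69 FPKM in H460 (-2.34, adjusted p = 3.29e-05) and from 122 ± 27.1 to 51.2 ± 3.61 in A549 (-1.22, adjusted p = 0.000206). MKNK2, an EIF4E kinase, followed in H460 (-1.90, adjusted p = 2.48e-06), and PDCD4, an inhibitor of the eIF4A helicases, in A549 (-0.99, adjusted p = 0.000598). By role, 7 of 12 cap-binding and control genes fell in H460 and 8 in A549, all 3 termination factors rose in H460 and 2 of 3 in A549, and the 6 eIF2 kinase and phosphatase genes split evenly in H460, with 3 rises and 3 falls. Of all genes, 27.6% rose and 41.5% fell in H460, and 30.5% and 27.0% in A549.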

How the data were processed

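RNA was extracted from H460 and A549 cells with TRIzol and the RNeasy kit, and TruSeq libraries were sequenced as 150 bp paired-end reads. The authors aligned FastQC-filtered reads to the hg38 genome (HISAT2), obtained gene counts from HTSeq 0.9.1 and deposited 1 table of FPKM values. The annotation and strand setting are not given in the sources used here. Multiplied by gene length, 100% of the FPKM values were whole reads (tolerance 0.01). The 4 lines without a gene were left out, and no column was unused.

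Columns name the line and treatment but no replicate number, so libraries are numbered by their place within a group. Each line was tested with limma 3.58.1 (R 4.3.3; mean-variance trend) on log2(FPKM + 1) for all genes averaging 0.1 FPKM or more, with Benjamini-Hochberg adjustment over all of them; past 2-fold means in addition a log2 change beyond 1. The interaction used all 12 libraries. The script was tested on simulated data. Alternatives were another pseudocount (0.1), other filters, median-of-ratios factors, quantile normalization, voom on the recovered reads, 1 fit of all libraries, limma's treat against 2-fold, leaving out each library and, chosen after seeing the data, removal of each library's lowess trend with GC content (span 0.3, GENCODE MANE Select transcripts). Voom was scaled by median-of-ratios factors too. The lowess fit was subtracted with its level, so that step also rescaled each library.

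Members, role groups and pathway lists were chosen with earlier results of these data known. Members named with values are the largest rise and fall of each role group and line (mean of at least 1 FPKM), those past 2-fold in a line or the interaction, all eIF2 and eIF2B genes, and the EIF1, EIF4A, EIF4G and EIF5A paralogues. Promoters are from RefSeq; 7 members had no entry and are not shown.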

Additional observations from a re-analysis of the deposited data

Results flagged for a closer look

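The change of EIF3A after ISP-I differed between the lines by 1.23 on the log2 scale (H460 minus A549; interaction adjusted p = 0.016, limma). Every H460 ISP-I library was above every H460 control, and all 3 A549 ISP-I libraries were above the A549 controls by a smaller amount. EIF2B1 differed by -1.09 (adjusted p = 2.57e-06): all 3 treated H460 libraries fell below the controls, and the A549 libraries overlapped.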

How the results depend on the processing

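No paired analysis was possible because the table's columns carry no replicate numbers of the labels. Read depth limits EIF4E3 (20 to 194 reads per library), EIF2S3B (77 to 184) and EIF3CL (50 to 104); most other changes below came with another scaling between libraries. In H460, members that rose numbered 22 with median-of-ratios factors, 24 with voom and 23 with the GC trend removed (14 as reported). Members that fell numbered 5 with median-of-ratios factors and 5 with voom (9 as reported). Voom was itself scaled by median-of-ratios factors, so it is no separate check of the scaling. The share of all genes moved too. With median-of-ratios factors 34.6% of them rose and 32.5% fell. With voom 4632 of 12939 rose and 4339 fell, and with the GC trend removed 5247 of 13254 rose. Past 2-fold, 9 were higher with median-of-ratios factors and 9 with voom (5 as reported). By the same measure 2 were lower with a pseudocount of 0.1, 0 with median-of-ratios factors and 0 with the GC trend removed (1 as reported). Over all genes, 1954 of 13423 were higher past 2-fold with median-of-ratios factors and 3080 of 12939 with voom. Lower were 3464 of 13423 with the pseudocount of 0.1, 1504 with median-of-ratios factors, and 1360 of 13254 with the GC trend removed. The median log2 change in H460 was 0.309 with median-of-ratios factors, 0.219 with quantile normalization, 0.336 with voom and 0.288 with the GC trend removed. In A549, members that fell numbered 4 with quantile normalization (4167 of 13705 genes) and 5 with the GC trend removed (4139 of 13536 genes). The A549 median was 0.324 over genes of at least 1 FPKM, 0.256 with median-of-ratios factors and 0.175 with quantile normalization. Limma's treat against 2-fold called 0 members in either direction in H460, A549 and the interaction. Over all genes it called 750 higher and 1052 lower in H460, 227 and 173 in A549, and 281 and 399 in the interaction. At an unadjusted p under 0.05, treat had 3 higher members in H460 and 0 elsewhere.

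In the interaction, members more positive in H460 numbered 7 with median-of-ratios factors, 7 with voom and 7 with the GC trend removed. Members more negative numbered 2, 2 and 5. Of all genes, 27.1% were more positive and 23.6% more negative with median-of-ratios factors. With voom these were 3455 and 3201 of 13912 genes, and with the GC trend removed 4591 and 3153 of 13778. Past 1 on the log2 scale, 3 were more positive with median-of-ratios factors, 3 with voom and 2 with the GC trend removed. With these 3 or with quantile normalization 0 were more negative. Over all genes, 1298 of 13953, 2114 of 13912 and 1305 of 13778 were more positive past 1 in these 3 fits. More negative were 825, 1909 and 716, and 919 of 13953 with quantile normalization. The interaction median was 0.109 with median-of-ratios factors, 0.127 with voom and -0.055 with the GC trend removed. EIF2B4 in H460 turned to 0.248 with the GC trend removed (adjusted p = 0.028), and EIF5B in A549 to -0.314 without control library 3. The causes were not tested.

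Leaving out 1 library at a time gave in H460 11 to 16 rises, 7 to 14 falls (14 without ISP-I library 3), 3 to 6 higher past 2-fold (3 without control library 2), 1 to 2 lower (2 without ISP-I library 3) and a median of 0.032 to 0.106. In A549 it gave 22 to 28 rises, 2 to 8 falls (8 without control library 3), 2 to 4 higher past 2-fold (4 without control library 1 or 3), 0 to 0 lower and a median of 0.26 to 0.303. In the interaction it gave 2 to 5 more positive (5 without H460 ISP-I library 3), 12 to 20 more negative, 0 to 2 and 1 to 1 past 1 on the log2 scale (0 more positive without H460 ISP-I library 2, 2 without H460 ISP-I library 3 or A549 control library 3) and a median of -0.204 to -0.161. Without A549 control library 3, EIF1AX, EIF2S3, EIF4G2, EIF4G3, EIF5A and EIF5B passed as lower in A549 and EIF3A and EIF3K as higher. Between the untreated lines, members past 2-fold numbered 0 higher with quantile normalization and 2 lower with a pseudocount of 0.1 (1 each as reported). Over all genes these were 863 and 2251 of 13532. Leaving out 1 library there, chosen after seeing the data, gave 0 to 1 higher (0 without H460 control library 3) and 1 to 1 lower. Members passing as higher and lower then numbered 16 to 18 and 7 to 11. Over all genes, 3361 to 4043 passed as higher and 3662 to 4749 as lower, of 13498 to 13565 tested.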
